A study of Homo sapiens with 36 samples.

Results

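Amino acid transporters are the proteins that carry amino acids across the plasma membrane, and 10 of their genes were followed here in SW1783 and HT29 cells that had received a plant extract or wortmannin. The genes were taken by symbol from the 60675 genes of the count table, namely *SLC7A5*, *SLC7A11*, *SLC3A2*, *SLC1A4*, *SLC1A5*, *SLC38A1*, *SLC38A2*, *SLC6A9*, *SLC7A1* and *SLC43A1*. Each symbol matched 1 Ensembl gene. SW1783 is a human astrocytoma line and HT29 a human colorectal adenocarcinoma line, so each tissue is represented by a single line. RNA was sequenced 24 h after treatment in 36 libraries, which formed 12 groups of 3 replicates. In each line, batch A held a vehicle group (vehicle A) and a group with wortmannin at 10 µM, which blocks the lipid kinase PI3K and was the positive control. Batch B held a second vehicle group (vehicle B) and 3 groups given ACD, the medicinal monkshood *Aconitum carmichaeli* Debeaux extracted with hot water, at 500 (high), 100 (medium) or 20 (low) µg/mL. Vehicle groups received 0.1% DMSO according to the sample labels. The higher share in the study's methods is that of the vehicle solution before its dilution in the medium. The question of the study was in which organ, brain or intestine, the extract predominantly acts. The paper predicted this from protein networks of both organs and from docking, and used the cell lines to verify the prediction. Nothing in the labels says that replicates were separate cultures, so p-values measure the spread between these libraries, which may be technical.

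Transporters of this kind work as a network. Exchangers of the SLC7 family pair with the heavy chain SLC3A2, which brings them to the cell surface, and trade one amino acid for another. The SLC38 carriers and the exchangers SLC1A4 and SLC1A5 bring in small neutral amino acids such as glutamine. SLC7A5 can then trade glutamine for leucine, whereas SLC7A11 trades glutamate for cystine. When amino acids run short, or the endoplasmic reticulum or mitochondria are under stress, the transcription factor ATF4 is known to raise many of these genes, and cells of tumours often express them highly.

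Total counts ran from 15941250 to 33866636 per library, and 3 counts, the limit that a count of 0 allows, came to 0.0886 to 0.188 CPM (counts scaled to a common library total), a limit that covers counting error only. *VIM* was between 4076 and 4975 CPM in SW1783 and at most 0.133 in HT29, and *EPCAM* was between 452 and 585 CPM in HT29 and at most 0.202 in SW1783, which fits the labels. The astrocyte markers *GFAP* and *S100B* were near 0 in SW1783, with at most 0.261 and 0.253 CPM. Other markers were not confined to 1 line. *CD44* was at 380 to 577 CPM in HT29, against 1974 to 2857 in SW1783. *KRT18* was at 68.7 to 250 CPM in SW1783, against 3099 to 4101 in HT29. The leukocyte gene *PTPRC* was at 3.28 to 14.2 CPM in SW1783 and at most 0.126 in HT29. Replicates were compared by their counts. The chi-square per degree of freedom over genes (sampling noise alone gives about 1) was between 1.71 and 4.07 for pairs within a group of SW1783. In HT29, replicate 2 of the high dose was at 79.5 and 80.6 from the others of its group, and all other pairs within a group were at 24.7 or less. Among these, replicate 1 of vehicle B was at 17.0 and 19.4 from the other two, which were 4.40 apart, and replicate 1 of vehicle A stood alike, at 16.6 and 19.1. The low-dose pairs of HT29 were between 9.54 and 24.7. Results are given with and without replicate 2 of the high dose, and without replicate 1 of a vehicle where that changed a count. The share of counts from the mitochondrial ribosomal RNAs moved with ACD. It went from 0.93% ± 0.0251 in vehicle B to 3.14% ± 0.164, 7.83% ± 0.199 and 5.93% ± 0.15 at the low, medium and high doses in SW1783, and from 1.18% ± 0.0398 to 1.09% ± 0.09, 2.10% ± 0.122 and 11.96% ± 0.634 in HT29 (mean ± SD, n = 3). Its part in the results was not tested. With only nuclear protein-coding genes in the fit, the number of transporter genes past the study's threshold stayed the same in the comparisons with vehicle.

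These genes share known regulators, whose motifs were searched near the start sites. 9 of the 10 genes had windows in a RefSeq promoter table (GRCh38.p14), 16 windows in all, each from 250 bases before to 50 bases after a start. *SLC7A11* had no window there and was not searched. TGATGNAA, the letters of the amino acid response element that ATF4 binds with a C/EBP partner, was searched on both strands and occurred in 5 of the 9 genes and in 5 of the 16 windows, and in 3.62% of all 35116 windows. A gene can have several windows, and a match is a description of the letters and does not show a site in use. These 5 matches are shown because ATF4 is a known regulator of several of these genes, with the match in capitals, 5′ to 3′ on the strand of the gene (*SLC1A4* and *SLC3A2* carry it on the other strand).
SLC1A4, chr2:64989382-64989409, plus strand: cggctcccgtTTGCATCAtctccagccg
SLC38A1, chr12:46266503-46266530, minus strand: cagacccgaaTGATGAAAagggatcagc
SLC7A1, chr13:29595664-29595691, minus strand: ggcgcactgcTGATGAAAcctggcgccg
SLC3A2, chr11:62881726-62881748, plus strand: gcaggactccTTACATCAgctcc
SLC1A5, chr19:46784894-46784921, minus strand: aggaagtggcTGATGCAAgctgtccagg
Only the match of *SLC1A5* lies wholly before its start, at 46784814. Those of *SLC1A4* and *SLC38A1* overlap their starts, and those of *SLC7A1* and *SLC3A2* follow theirs. Of these starts only that of *SLC7A1*, at 29595688, is the 5′ end of the annotated gene. TGACNNNGC is the core of the antioxidant response element of NFE2L2. It was present in 4 of the 9 genes and 4 of the 16 windows, and in 13.3% of all windows. CACGTG, the E-box of MYC, was in 3 of the 9 genes and 3 of the 16 windows, and in 7.26% of all windows. For the light chain and heavy chain that form 1 exchanger, these matches were as follows.
SLC7A5, chr16:87869491-87869519, minus strand: gcggggttccTGACGCAGCtgcgggcggc
SLC7A5, chr16:87869622-87869647, minus strand: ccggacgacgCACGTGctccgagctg
SLC3A2, chr11:62881652-62881680, plus strand: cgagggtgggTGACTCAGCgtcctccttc
None of the printed matches overlapped another. The gene with the widest rise in HT29, *SLC6A9*, and the gene with the least regular response, *SLC38A2*, had none of the 3 motifs in their windows, which says only that these letters are not there.

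In vehicle, the transcripts of these transporters stood at different levels in the lines. By the study's methods, SW1783 grew in Leibovitz's medium without added carbon dioxide and HT29 in DMEM with it. The plating densities differed as well. Line, medium and density therefore cannot be told apart in any comparison between the lines, including that of their responses. Levels are given first as CPM per kb of exon, which allows genes to be compared, and the exon length is that of all annotated exons of a gene together. *SLC1A5*, the glutamine and neutral amino acid exchanger ASCT2, was the highest of the 10 in both lines, with 85.6 ± 2.98 CPM per kb in SW1783 and 256 ± 3.34 in HT29 (vehicle B, mean ± SD, n = 3). In SW1783 the order then ran *SLC38A2* (72.8 ± 2.33), *SLC7A5* (35.5 ± 0.768), *SLC3A2* (23.3 ± 0.0705), *SLC7A1* (21.1 ± 0.148), *SLC7A11* (14.3 ± 0.38), *SLC38A1* (13.5 ± 0.25), *SLC6A9* (6.08 ± 0.233), *SLC1A4* (4.28 ± 0.0829) and *SLC43A1* (0.447 ± 0.0694). No neighbours in that order overlapped over the 3 libraries. In HT29 it ran *SLC7A1* (77.2 ± 10.3), *SLC7A5* (62.0 ± 2.92), *SLC38A1* (35.7 ± 4.27), *SLC3A2* (28.6 ± 1.98), *SLC38A2* (26.4 ± 1.92), *SLC7A11* (14.7 ± 1.15), *SLC43A1* (9.69 ± 0.325), *SLC1A4* (1.43 ± 0.0697) and *SLC6A9* (0.116 ± 0.0174), and only *SLC3A2* and *SLC38A2* overlapped.

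**Figure D1:**
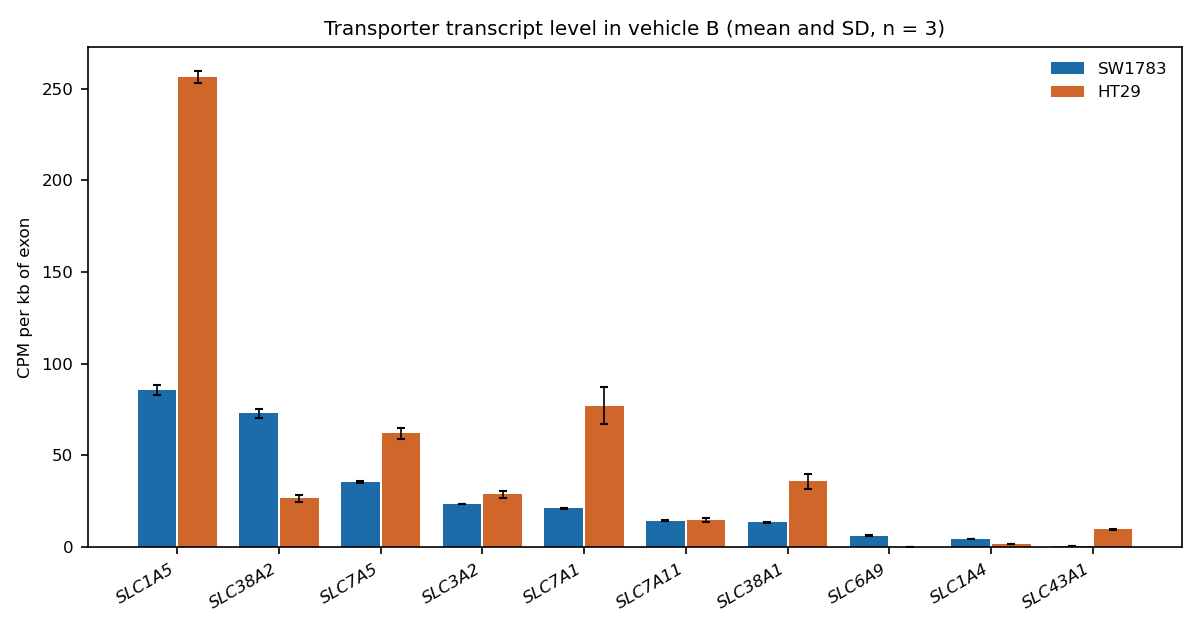
Transcript level of the 10 transporter genes in vehicle B, in CPM per kb of exon, as mean (bar) and SD (error bar) of 3 libraries per line. *SLC1A5* is the highest in both lines, and the lowest is *SLC43A1* in SW1783 and *SLC6A9* in HT29.

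The line difference in vehicle B comes from a DESeq2 Wald test across all genes, with p-values adjusted by Benjamini-Hochberg. Throughout, rose and fell are used of genes with an adjusted p under 0.05, and the study's threshold for a differentially expressed gene adds a change of more than 1.5-fold (log2 0.585). Past that threshold, 3 of the 10 genes were higher in SW1783 and 5 were lower, where 28.9% and 24.4% of all 22845 genes tested were higher and lower. The glycine transporter gene *SLC6A9* differed most, with 5.76 ± 0.24 (log2 difference SW1783 minus HT29 ± SE, adjusted p = 3.31e-123). *SLC1A4* and *SLC38A2* were higher in SW1783 by 1.60 ± 0.10 and 1.48 ± 0.060. On the other side, *SLC43A1*, a facilitated carrier of large neutral amino acids, was at -4.42 ± 0.18 (adjusted p = 6.9e-136), *SLC7A1* at -1.85 ± 0.086, *SLC1A5* at -1.56 ± 0.045, *SLC38A1* at -1.38 ± 0.081 and *SLC7A5* at -0.79 ± 0.051. *SLC3A2* was lower by less than the threshold (-0.28 ± 0.072). *SLC7A11* had a difference of -0.023 ± 0.064 with a 95% interval of -0.15 to 0.10 (adjusted p = 0.771). All of these are transcript levels in whole cultures, and fewer cells and less RNA per cell cannot be told apart.

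At the high dose of ACD, all 10 transporter genes rose in SW1783, 8 of them by more than 1.5-fold, and 9 of 10 rose in HT29, 6 of them by more than 1.5-fold. The 9 became 8 with edgeR, with the replicate number as a block, or without replicate 1 or 2 of vehicle B or replicate 1 or 3 of the high dose, in each case through *SLC38A1* (adjusted p between 0.0687 and 0.179). They became 7 with only the compared groups in the fit, where *SLC1A5* did not pass either (adjusted p = 0.0783). Of all 19466 genes tested in SW1783, 23.8% rose and 22.6% fell, and 8.65% rose past the study's threshold. Of the 16633 tested in HT29, 3.94% rose and 1.27% rose past the threshold. The median log2 fold change of the 10 genes was 1.44 in SW1783 and 0.75 in HT29, against -0.010 and 0.0063 over all genes tested. All 3 high-dose libraries lay above all 3 vehicle libraries for 10 of the 10 genes in SW1783 and for 8 in HT29, where 30.6% and 10.3% of all genes tested did so. Together the 10 genes took up 1562 to 1593 CPM in vehicle B and 3023 to 3067 CPM at the high dose in SW1783, and 2465 to 2745 and 2756 to 3995 CPM in HT29 (lowest to highest library).

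**Figure D2:**
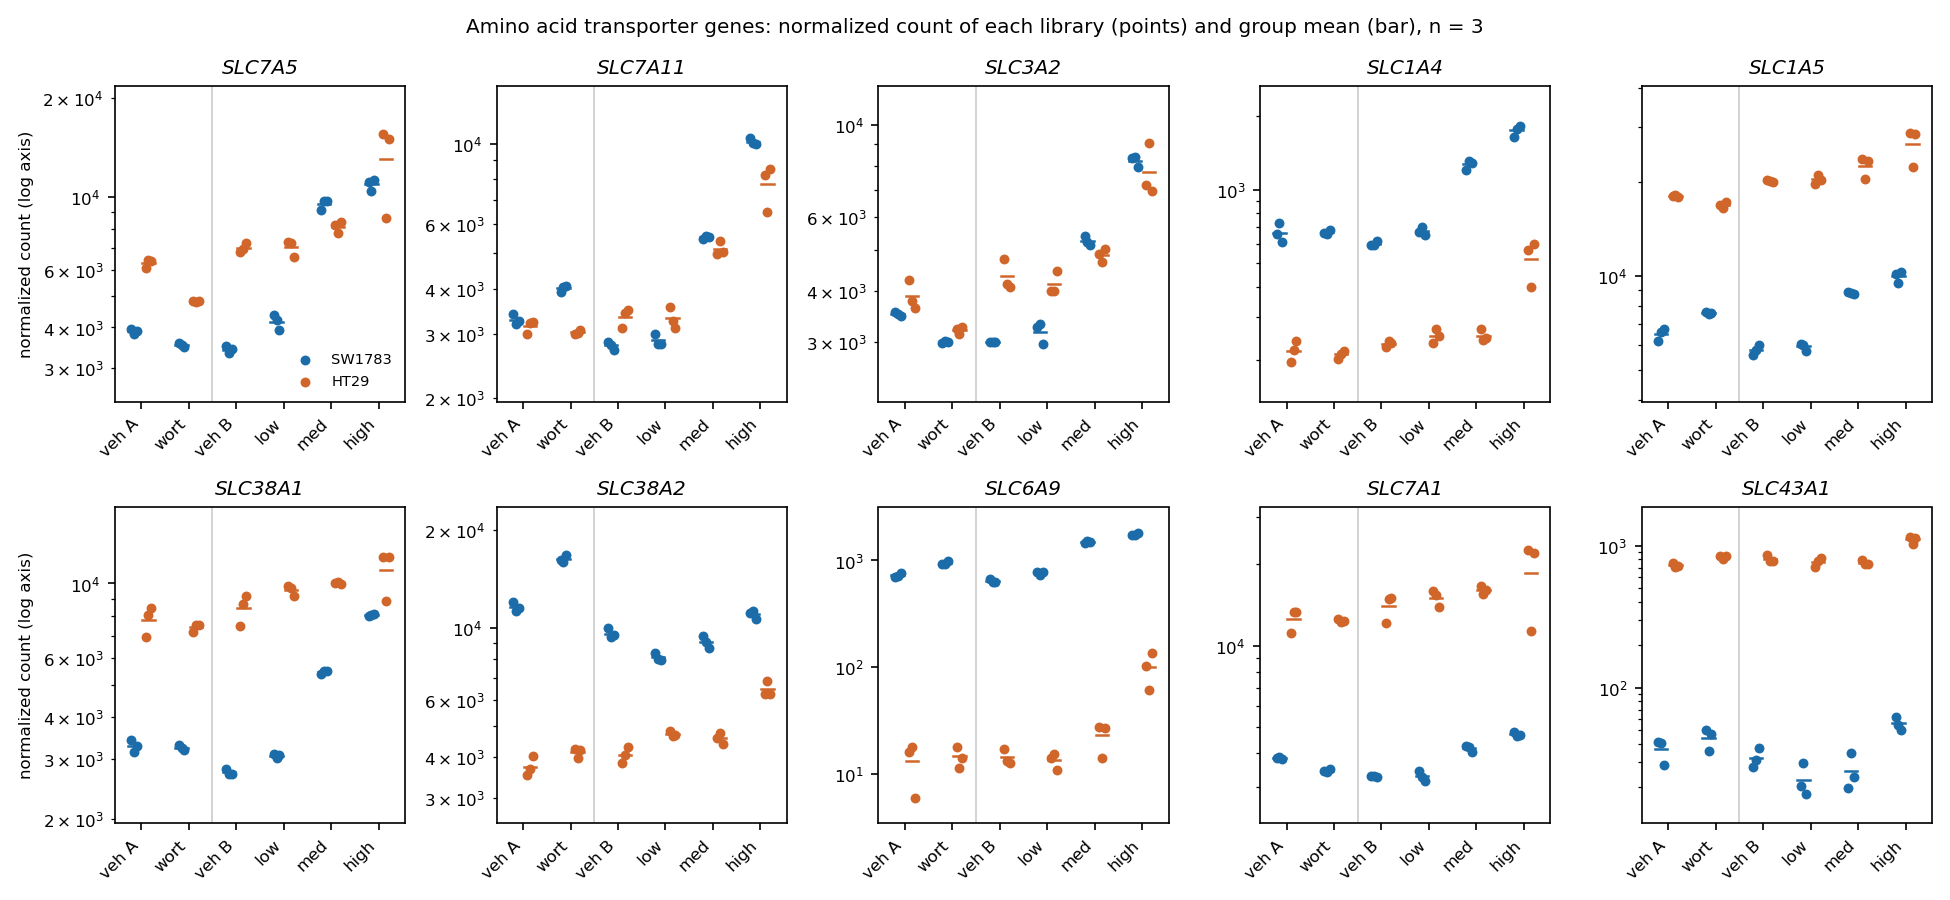
Normalized count (log axis) of each transporter gene in each of the 36 libraries, with vehicle A and wortmannin left and vehicle B and ACD right of the grey line. Points are libraries, short bars are group means of 3, and batches and lines were normalized separately. All high-dose points lie above the vehicle B points of the same line except for *SLC38A1* and *SLC7A1* in HT29, where replicate 2 is low.

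The exchangers and their heavy chain were among the genes that rose most. *SLC7A5* (ENSG00000103257, chromosome 16, 87830023 to 87869507, minus strand) encodes LAT1, which takes up leucine and other large neutral amino acids in exchange for glutamine. In SW1783 its normalized counts were 3500.4, 3336 and 3432 in vehicle B, 4355, 4221 and 3925 at the low dose, 9118, 9717 and 9727 at the medium dose and 11117, 10459.8 and 11283 at the high dose (replicates 1, 2 and 3). The doses did not overlap with each other or with vehicle. The log2 fold change was 0.28 ± 0.041 at the low dose (adjusted p = 2.15e-09), 1.48 ± 0.040 at the medium dose (adjusted p = 1.12e-292) and 1.68 ± 0.040 at the high dose, 3.20-fold, where the adjusted p was below the smallest number the software prints. In HT29 the counts were 6776, 6959.6 and 7221 in vehicle B, 7268, 7255 and 6570.3 at the low dose, 8241, 7744 and 8385 at the medium dose and 15524, 8629.9 and 14984 at the high dose. Only replicate 2 of the high dose stood near the medium dose. The high dose gave 0.90 ± 0.18 (adjusted p = 1.81e-05), or 1.13 ± 0.059 without replicate 2.

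*SLC7A11* (ENSG00000151012, chromosome 4, 138164097 to 138242349, minus strand) encodes xCT, which imports cystine for glutathione synthesis in exchange for glutamate. Its counts in SW1783 were 2861, 2792 and 2719 in vehicle B, 3005, 2823 and 2817 at the low dose, 5486, 5561 and 5544 at the medium dose and 10355, 10065 and 9952 at the high dose. The low dose overlapped with vehicle, the others did not. The high dose gave the largest rise of the 10 genes in SW1783, 1.86 ± 0.033 or 3.63-fold, the medium dose 0.99 ± 0.033 (adjusted p = 4.68e-188) and the low dose 0.047 ± 0.035 (adjusted p = 0.585). In HT29 the counts were 3120.4, 3432 and 3502 in vehicle B, 3556, 3259.6 and 3122 at the low dose, 4979, 5396 and 5028 at the medium dose and 8197, 6499.8 and 8529.8 at the high dose. Here the medium dose lay above vehicle in all 3 libraries and *SLC7A11* was the only one of the 10 genes to rise in HT29 at that dose, by 0.62 ± 0.11 (adjusted p = 2.74e-06), and by 1.21 ± 0.11 (adjusted p = 6.51e-27) at the high dose. The antisense gene *SLC7A11-AS1* overlaps its exons and had a mean of 53.8 counts, and since the strand setting of the counting was not stated, reads of the pair cannot be told apart.

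*SLC3A2* (ENSG00000168003, chromosome 11, 62856004 to 62888880, plus strand) encodes the heavy chain that LAT1 and xCT share. In SW1783 its counts were 3008, 3008 and 3012 in vehicle B, 3270.2, 3314 and 2968 at the low dose, 5424, 5232 and 5149.7 at the medium dose and 8354, 8399 and 7918 at the high dose. Medium and high were apart from vehicle and from each other, with 0.81 ± 0.040 at the medium dose (adjusted p = 1.4e-89) and 1.45 ± 0.039 at the high dose (adjusted p = 2.14e-299). In HT29 the counts went from 4773, 4143 and 4077 in vehicle B to 7199.5, 9052 and 6935 at the high dose, with 0.84 ± 0.11 (adjusted p = 1.05e-11). Replicate 2 was the highest of the high-dose libraries for this gene and the lowest for *SLC7A5* and *SLC7A11*, and without it the log2 fold change was 0.71 ± 0.075.

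The carriers of small neutral amino acids did not move as 1 group. *SLC1A4* (ENSG00000115902, chromosome 2, 64988477 to 65023865, plus strand), which encodes the alanine, serine and cysteine exchanger ASCT1, had counts of 592, 596 and 616 in vehicle B of SW1783, 670.4, 705 and 649.8 at the low dose, 1209, 1313 and 1288 at the medium dose and 1648, 1777 and 1830.4 at the high dose. Every dose lay above vehicle, with 1.54 ± 0.063 (adjusted p = 2.24e-130) at the high dose and 1.08 ± 0.064 (adjusted p = 4.86e-61) at the medium dose, while 0.17 ± 0.068 at the low dose did not pass (adjusted p = 0.184). In HT29 the counts were 226, 240 and 235 in vehicle B, 268, 241 and 246 at the medium dose and 563, 398 and 599 at the high dose. The step thus lay between medium and high in HT29, where high against medium gave 1.06 ± 0.15 (adjusted p = 4.14e-10) and high against vehicle 1.16 ± 0.15 (adjusted p = 1.1e-12).

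*SLC1A5* (ENSG00000105281, chromosome 19, 46774883 to 46788594, minus strand), the highest of the 10 in both lines, rose less. Its counts went from 5576, 5766 and 5990.5 in vehicle B to 8901, 8794 and 8757 at the medium and 10112, 9500.3 and 10325 at the high dose in SW1783, and from 20379.7, 20138 and 20096 to 28841, 22369.7 and 28522 at the high dose in HT29. High and vehicle did not overlap in either line. At the high dose the changes were 0.79 ± 0.034 (adjusted p = 7.34e-115) in SW1783 and 0.40 ± 0.10 (adjusted p = 0.00275) in HT29, the latter under the 1.5-fold threshold, with 0.50 ± 0.061 without replicate 2.

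*SLC38A1* (ENSG00000111371, chromosome 12, 46183063 to 46270017, minus strand), which encodes the sodium-coupled glutamine carrier SNAT1, rose in SW1783 and much less in HT29. In SW1783 its counts were 2806, 2716 and 2715 in vehicle B, 3115, 3024 and 3085 at the low dose, 5368, 5502 and 5485 at the medium dose and 8006, 8061 and 8115 at the high dose. No 2 of these groups overlapped, and the log2 fold changes were 0.16 ± 0.032 (adjusted p = 5.46e-05), 0.99 ± 0.031 (adjusted p = 8.3e-225) and 1.55 ± 0.030. In HT29 the counts were 7482, 8678 and 9185 in vehicle B and 12009.8, 8866 and 11952 at the high dose. These overlapped, through replicate 2, and the log2 fold change was 0.37 ± 0.12 (adjusted p = 0.0284), or 0.50 ± 0.072 without that library.

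*SLC38A2* (ENSG00000134294, chromosome 12, 46358188 to 46372773, minus strand) encodes SNAT2, the carrier of the same family that cells are known to raise when amino acids are withdrawn. Its counts in SW1783 were 9958, 9349 and 9486 in vehicle B, 8380.5, 8032 and 7986 at the low dose, 9444, 9053 and 8669 at the medium dose and 11152, 11249 and 10683 at the high dose. It was the only one of the 10 genes that passed the test in both directions under ACD in SW1783. It fell by 0.24 ± 0.035 on the log2 scale at the low dose (adjusted p = 1.95e-09) and by 0.084 ± 0.034 at the medium dose (adjusted p = 0.0462, with overlapping groups, and not passed with edgeR or with only the compared groups in the fit), and it rose by 0.20 ± 0.034 at the high dose (adjusted p = 2.31e-08). In HT29 the counts went from 3833, 4067 and 4303 in vehicle B to 6254, 6874 and 6266 at the high dose. The groups were apart, with 0.67 ± 0.065 (adjusted p = 6.1e-22), and replicate 2 was the highest of the 3.

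The remaining genes serve glycine, cationic and facilitated transport. *SLC6A9* (ENSG00000196517, chromosome 1, 43991500 to 44031467, minus strand) encodes the glycine transporter GLYT1. In SW1783 its counts were 675, 628 and 635 in vehicle B, 779, 727 and 776 at the low dose, 1464, 1531 and 1495 at the medium dose and 1724, 1718 and 1812 at the high dose. In HT29 they were 17.2, 13.2 and 12.8 in vehicle B, 14.1, 15.4 and 10.8 at the low dose, 27.8, 14.2 and 26.9 at the medium dose and 104, 61.5 and 135 at the high dose. The groups at the high dose were apart from vehicle in both lines, but the HT29 level at the high dose, 0.736 ± 0.295 CPM per kb, was still below the SW1783 level in vehicle, 6.08 ± 0.233 CPM per kb. The high dose gave 1.44 ± 0.058 (adjusted p = 3.44e-134) in SW1783 and 2.84 ± 0.39 (adjusted p = 7.33e-11) in HT29, 7.15-fold from very low counts, with an interval of 2.07 to 3.61. *CCDC24*, on the other strand with exons that overlap those of *SLC6A9*, had a mean of 102 counts, more than *SLC6A9* itself in HT29 vehicle.

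*SLC7A1* (ENSG00000139514, chromosome 13, 29509414 to 29595688, minus strand) encodes CAT1, the carrier of arginine and lysine. Its counts went from 3288, 3295 and 3271 in vehicle B to 4261, 4225 and 4032 at the medium and 4786, 4627 and 4680.4 at the high dose in SW1783, with 0.34 ± 0.037 (adjusted p = 4.13e-19) and 0.52 ± 0.037 (adjusted p = 9.98e-44), both under 1.5-fold. In HT29 they were 12121, 14839 and 15046 in vehicle B and 22596, 11334 and 21953 at the high dose. Replicates 1 and 3 of the high dose lay above all vehicle libraries and replicate 2 below all of them. With 3 libraries the change was 0.41 ± 0.21 (adjusted p = 0.263), and without replicate 2 it was 0.67 ± 0.084 (adjusted p = 2.69e-13).

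*SLC43A1* (ENSG00000149150, chromosome 11, 57484534 to 57515780, minus strand) encodes LAT3. Its counts were low in SW1783, with 27.7, 30.7 and 37.5 in vehicle B, 19.7, 34.5 and 23.6 at the medium dose and 62.5, 55 and 50.5 at the high dose. The high dose was apart from vehicle, but the log2 fold change of 0.81 ± 0.31 (adjusted p = 0.0206) no longer passed when vehicle replicate 1 or 2 or high-dose replicate 1 or 2 was left out, with adjusted p between 0.0614 and 0.0954. In HT29, where the gene is higher, the counts were 858, 783 and 784 in vehicle B and 1159, 1031 and 1138 at the high dose. These groups were apart, with 0.46 ± 0.083 (adjusted p = 1.99e-06), under 1.5-fold.

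**Figure D3:**
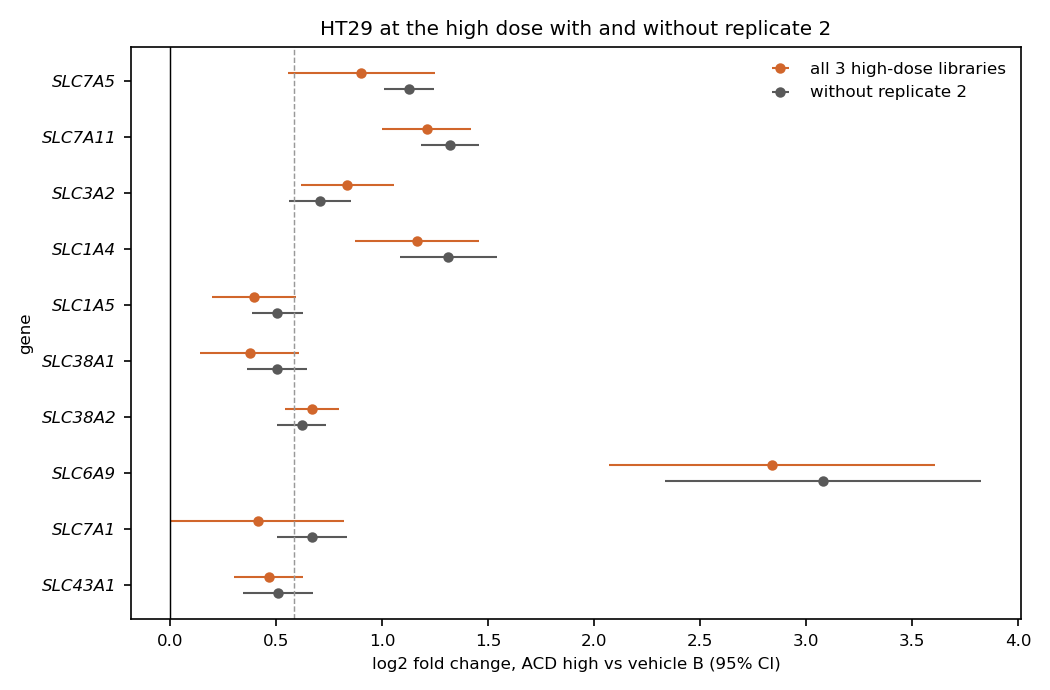
Log2 fold change of the 10 genes in HT29 at the high dose against vehicle B, with 95% confidence intervals, from all 3 high-dose libraries and without replicate 2. Without it *SLC7A1* passes the 1.5-fold line (dashed) and the intervals of most genes are narrower.

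When HT29 replicate 2 of the high dose was left out, 10 of 10 genes rose, as did 10.6% of all genes tested, and 7 of the 10 passed the 1.5-fold threshold, and the median SE over the 10 genes went from 0.115 to 0.0736. The share of all genes past the threshold in either direction went to 4.11% at the same time.

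The dose response differed between the lines. In SW1783 the group mean went up at each dose step for 8 of the 10 genes, all but *SLC38A2* and *SLC43A1*, and in HT29 for 4 (*SLC7A5*, *SLC1A5*, *SLC38A1* and *SLC7A1*). At the medium dose, 8 genes rose and 1 fell in SW1783, where 16.1% of 13235 genes tested rose and 15.5% fell, and 7 passed the study's threshold, which 2.32% did upwards. All 3 medium-dose libraries lay above all vehicle libraries for 8 genes, against 25.7% of all genes tested. In HT29 1 gene rose at the medium dose, *SLC7A11*, where 1.18% of 16089 genes rose and 0.429% did so past the threshold. All 3 medium-dose libraries of HT29 lay above all vehicle libraries for 7 genes, against 14.8% of all genes tested. Without high-dose replicate 2 in the shared fit, 4 genes rose at the medium dose in HT29, *SLC7A5*, *SLC38A1* and *SLC38A2* in addition, by 0.22 ± 0.054, 0.25 ± 0.064 and 0.17 ± 0.053. The share of all genes that rose went to 4.90% in that fit, and the median SE of the 10 genes from 0.115 to 0.0661.

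At the low dose, *SLC7A5*, *SLC38A1* and *SLC6A9* rose in SW1783 and *SLC38A2* fell, all by less than 1.5-fold, where 2.24% of the 8701 genes tested rose and 1.33% fell. *SLC6A9* had 0.24 ± 0.062 (adjusted p = 0.00749). None of the 10 passed the study's threshold there, as 0.103% of all genes did in either direction, and DESeq2 gave no adjusted p for *SLC43A1*. At an unadjusted p under 0.05, 6 of the 10 passed. In HT29 none of the 10 passed at the low dose by DESeq2 or by edgeR, and 1 did at an unadjusted p under 0.05, *SLC38A2* with 0.21 ± 0.065 (adjusted p = 0.11). Of the 15546 genes tested, 0.334% rose and 0.315% fell. With high-dose replicate 2 left out of the shared fit, *SLC38A2* rose at the low dose by 0.21 ± 0.053 (adjusted p = 0.0069). In that fit 1.67% of all genes rose.

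From the medium to the high dose, all 10 genes rose in SW1783, 3 of them by more than 1.5-fold (*SLC7A11*, *SLC3A2* and *SLC43A1*), where 20.9% of 16632 genes rose and 4.55% did so past the threshold. *SLC7A11* had the step of 0.87 ± 0.031 (adjusted p = 3.79e-174), whereas *SLC7A5*, which was already high at the medium dose, had 0.20 ± 0.038 (adjusted p = 9.95e-07). In HT29 7 genes rose, 5 of them past the threshold (*SLC7A5*, *SLC7A11*, *SLC3A2*, *SLC1A4* and *SLC6A9*), where 0.953% of 15002 genes rose and 0.38% did so past it. *SLC6A9* had 2.16 ± 0.37 (adjusted p = 8.45e-07) and *SLC7A5* 0.68 ± 0.18 (adjusted p = 0.00931), of which the latter did not pass with edgeR (adjusted p = 0.107), with only the 2 groups in the fit (adjusted p = 0.26) or when any library of these groups other than high-dose replicate 2 was left out (adjusted p between 0.0656 and 0.163). Without high-dose replicate 2, *SLC7A5* had 0.91 ± 0.059 (adjusted p = 9.94e-50) and all 10 genes rose, as 1.21% of all genes did.

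**Figure D4:**
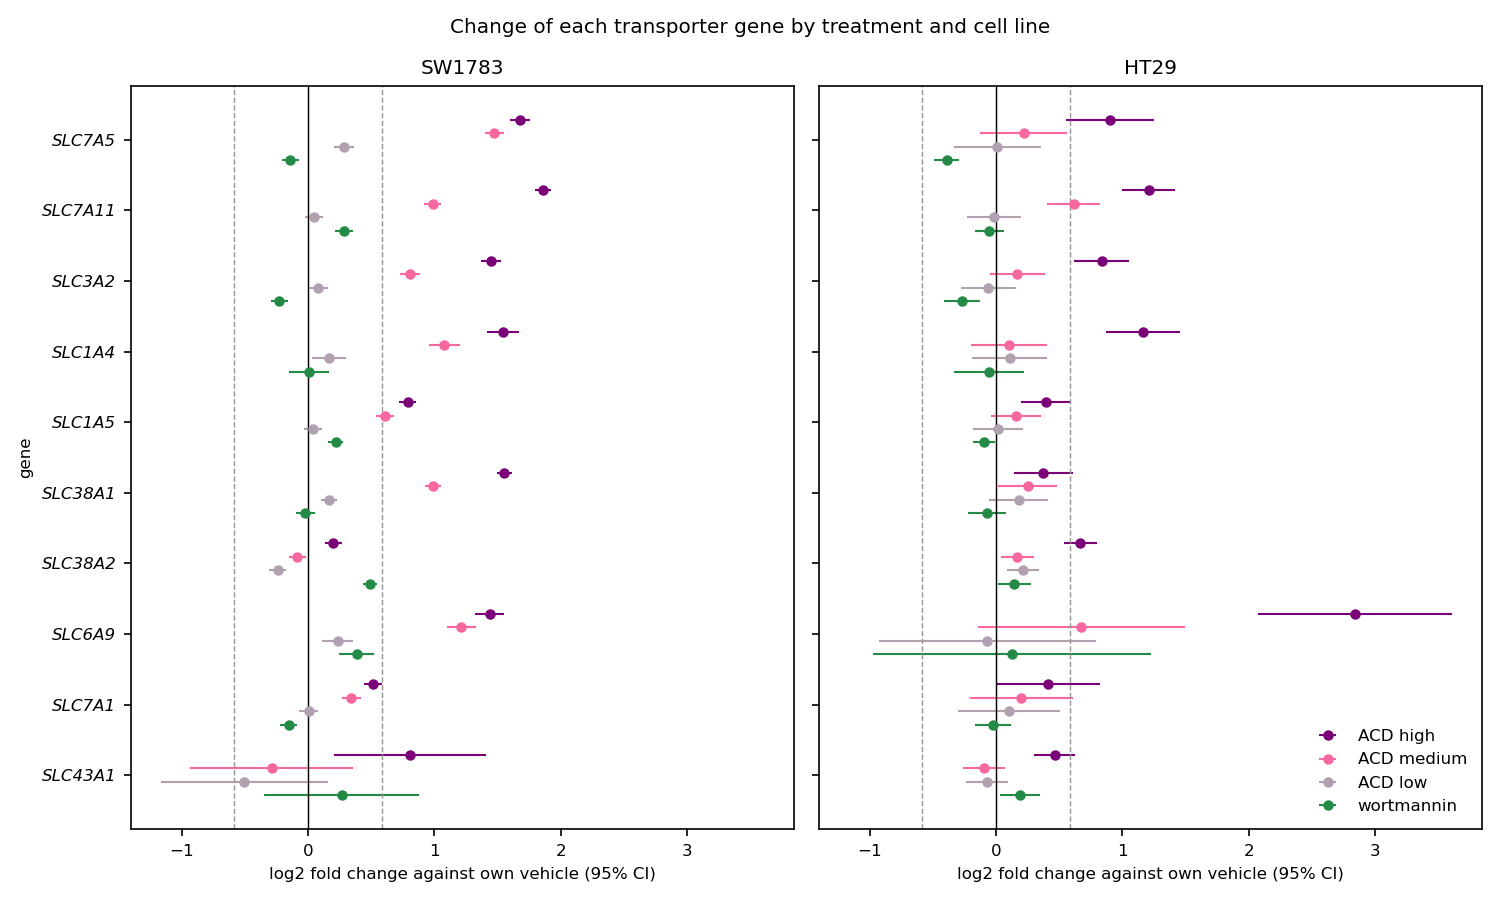
Log2 fold change of each transporter gene against the vehicle of its own batch, with 95% confidence intervals, for 3 doses of ACD and for wortmannin in both lines. Dashed lines mark a change of 1.5-fold. In SW1783 the medium dose lies near the high dose for *SLC7A5*, *SLC6A9*, *SLC1A5* and *SLC7A1*. In HT29 the medium dose stays near 0 for most genes.

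The difference of the responses was tested directly, as the interaction of line and treatment on the 24 libraries of batch B. Medium and plating density differed with the line here too. At the high dose 5 of the 10 genes rose more in SW1783 and 2 rose more in HT29, where 12.7% and 15% of 18384 genes tested differed in these directions. Past a 1.5-fold difference there were 3 and 1, against 6.86% and 7.77% of all genes. The log2 difference, SW1783 minus HT29, was 1.14 ± 0.12 for *SLC38A1* (adjusted p = 3.42e-18), 0.73 ± 0.19 for *SLC7A5* (adjusted p = 0.000952) and 0.61 ± 0.11 for *SLC7A11* (adjusted p = 6.45e-07). On the side of HT29 it was -1.52 ± 0.27 for *SLC6A9* (adjusted p = 3.4e-07) and -0.51 ± 0.067 for *SLC38A2* (adjusted p = 1.34e-12). No difference passed for *SLC1A4*, *SLC7A1* and *SLC43A1*, with 95% intervals of 0.042 to 0.61, -0.38 to 0.50 and -0.12 to 0.72. Without HT29 replicate 2, *SLC7A5* and *SLC7A11* differed by 0.50 ± 0.072 and 0.49 ± 0.069, under 1.5-fold, and *SLC3A2*, *SLC38A1* and *SLC6A9* by 0.69 ± 0.085, 1.00 ± 0.073 and -1.72 ± 0.25.

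At the medium dose the interaction passed for 6 genes in favour of SW1783 and for *SLC38A2* in favour of HT29, with 4.43% and 6.46% of 14546 genes. 4 genes differed by more than 1.5-fold, all higher in SW1783, as 1.84% of all genes did. They were *SLC7A5* with 1.24 ± 0.19 (adjusted p = 1.42e-08), *SLC1A4* with 0.96 ± 0.15 (adjusted p = 1.94e-08), *SLC38A1* with 0.72 ± 0.12 (adjusted p = 5.85e-07) and *SLC3A2* with 0.62 ± 0.12 (adjusted p = 4.8e-06). Without HT29 high-dose replicate 2 these were 1.24 ± 0.069, 0.96 ± 0.11, 0.72 ± 0.070 and 0.61 ± 0.081. Both interactions use the same vehicle libraries.

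Under wortmannin, 4 of the 10 genes rose and 3 fell in SW1783 and 2 fell in HT29, and none passed the study's threshold by DESeq2 in either line. At an unadjusted p under 0.05, 7 passed in SW1783 and 5 in HT29. In SW1783, 14% of 13739 genes rose, 20.5% fell and 2.72% passed the threshold in either direction. *SLC38A2* had the largest change, with counts of 12054, 11235 and 11505 in vehicle A and 16197, 15988 and 16710.3 under wortmannin. The groups were far apart, and the log2 fold change was 0.49 ± 0.026 (adjusted p = 5.21e-75). *SLC6A9* (0.39 ± 0.071), *SLC7A11* (0.29 ± 0.037) and *SLC1A5* (0.22 ± 0.031) also rose, with adjusted p of 5.08e-07, 1.09e-13 and 3.13e-11. *SLC3A2* (-0.23 ± 0.036), *SLC7A1* (-0.15 ± 0.034) and *SLC7A5* (-0.14 ± 0.034) fell, with adjusted p of 2.98e-09, 6.29e-05 and 0.000328.

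In HT29 the light chain LAT1 and its heavy chain fell under wortmannin. *SLC7A5* went from 6093, 6403 and 6397 in vehicle A to 4816, 4783 and 4814, and *SLC3A2* from 4248, 3772 and 3622 to 3236, 3151 and 3268. Neither overlapped, with -0.39 ± 0.050 for *SLC7A5* (adjusted p = 8.57e-13) and -0.27 ± 0.071 for *SLC3A2* (adjusted p = 0.00195). Without replicate 1 of vehicle A, 5 genes fell, *SLC1A5*, *SLC38A1* and *SLC7A1* in addition, by 0.092 ± 0.030, 0.15 ± 0.038 and 0.100 ± 0.030 on the log2 scale, where 11.5% of all genes fell. None rose by DESeq2 and 1 by edgeR, and *SLC6A9*, at counts of 16, 17.8 and 6 in vehicle A, received no adjusted p. Of 13555 genes tested, 7.75% rose, 11.3% fell and 2.67% passed the threshold. The interaction of line and wortmannin was past the test for 4 genes by DESeq2 and by edgeR, all higher in SW1783, against 5.23% and 9.33% of 13883 genes. These were *SLC38A2* with 0.32 ± 0.074 (adjusted p = 0.000252), *SLC7A11* with 0.32 ± 0.060 (adjusted p = 3.66e-06), *SLC1A5* with 0.29 ± 0.048 (adjusted p = 1.03e-07) and *SLC7A5*, which fell less in SW1783, with 0.23 ± 0.049 (adjusted p = 5.81e-05). For *SLC3A2* the interval of the difference was -0.12 to 0.16.

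The remaining transporters of the plasma membrane did not follow the 10 genes. Both lists were drawn up with earlier results of these data known, so part of this contrast may come from the choice of genes. Of 31 others, 14 had an adjusted p in SW1783 at the high dose. Of these, 2 rose and 7 fell, where 23.8% and 22.6% of all genes did, and 4 fell past the study's threshold, as 9.57% did. Their median log2 fold change was -0.41. *SLC1A3*, the glial glutamate transporter EAAT1, fell by 2.45 ± 0.11 on the log2 scale (adjusted p = 3.89e-115), *SLC38A4* by 1.98 ± 0.17 (adjusted p = 8.03e-31) and *SLC7A8*, which encodes LAT2, another light chain of SLC3A2, by 0.83 ± 0.14 (adjusted p = 2.36e-08). *SLC1A3*, *SLC38A4* and *SLC7A8* also fell at the medium dose, by 0.94 ± 0.089, 0.90 ± 0.15 and 0.61 ± 0.14. At that dose 1 of the 9 tested rose and 5 fell, where 16.1% and 15.5% of all genes did. In HT29, 15 of the 31 were tested at the high dose. Of these, 1 rose, where 3.94% of all genes did, and 2 fell, 1 of them past the threshold, where 1.61% did. Their median was 0.0005. The summed level of 6 mesenchymal and astrocytic markers in SW1783, which include *SLC1A3*, went from 9236 to 9511 CPM in vehicle B to 7461 to 7478 CPM at the high dose, and its part in the result was not tested.

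A list of 13 genes of the amino acid response and other regulators was read beside them, drawn up with earlier results of these data known. At the high dose in SW1783, 12 of the 13 rose and 1 fell, and 11 rose past the threshold, as 8.65% of all genes did, with a median log2 fold change of 1.60. In HT29 7 rose and 6 did not pass, and 6 rose past the threshold, as 1.27% of all genes did, with a median of 0.52. In SW1783 *ATF3*, *TRIB3* and *DDIT3*, stress-induced genes downstream of ATF4, had 4.73 ± 0.16, 4.31 ± 0.056 and 3.91 ± 0.064. In HT29 the leading genes were *CHAC1*, which encodes a glutathione-degrading enzyme, with 2.99 ± 0.17 (adjusted p = 9.56e-67), *DDIT4* with 1.83 ± 0.080 (adjusted p = 6.07e-112) and *TRIB3* with 1.08 ± 0.074 (adjusted p = 1.37e-45). The interaction at the high dose was 3.24 ± 0.23 for *ATF3* and 3.18 ± 0.091 for *TRIB3*, both higher in SW1783. Under wortmannin 2 of the 13 rose and 4 fell in SW1783, where 14% and 20.5% of all genes did. In HT29 1 rose and 4 fell, where 7.75% and 11.3% of all genes did. The rises were near these shares in both lines, and all these changes were less than 1.5-fold.

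**Figure D5:**
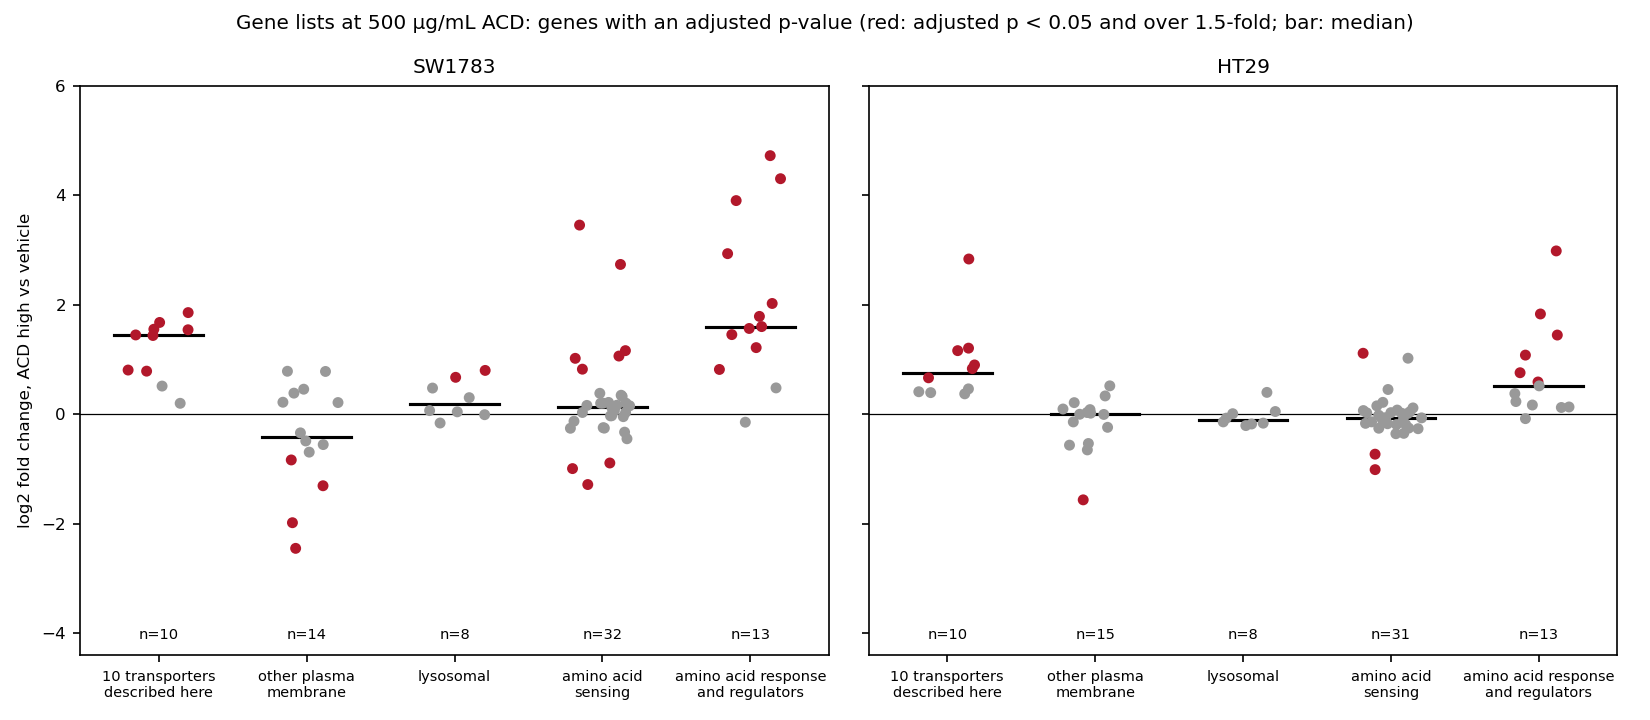
Log2 fold change at 500 µg/mL ACD against vehicle B of the genes with an adjusted p in 5 lists, per line. Red points passed the adjusted p of 0.05 and 1.5-fold, grey points did not, and bars are medians. The 10 transporters and the response genes lie mostly above 0, and the other plasma membrane transporters of SW1783 mostly below.

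The gene whose 8 log2 fold changes against vehicle were closest to those of a transporter gene was found among 9546 genes whose mean normalized count reached 100 in all fits, by the root mean square (RMS) difference. These comparisons share vehicles and line, so the values describe likeness only. *SLC7A5* was closest to *ATF4* (RMS difference 0.19) and the tRNA synthetase gene *GARS1* (0.19), where the median over all genes was 0.87. *SLC3A2* was closest to *MTHFD2*, a mitochondrial folate enzyme (0.12), and *SLC1A4* to the alanyl-tRNA synthetase gene *AARS1* (0.19). *SLC7A11* was closest to *GCLC*, which encodes the catalytic subunit of the first enzyme of glutathione synthesis (0.22), and then to *SLC1A4* (0.25). *SLC38A1* was closest to *BLTP3A* (0.097), *SLC1A5* to *ZCCHC8* (0.098) and *SLC7A1* to *DNAJC10* (0.067). *SLC38A2* and *SLC43A1* both had the noncoding gene *EPB41L4A-AS1* as the closest, at 0.17 and 0.21, where the medians over all genes were 0.38 and 0.43. The closest to *SLC6A9* was *DDIT4* at 0.50, where the median was 1.23. *SLC6A9* in HT29 and *SLC43A1* in SW1783 did not themselves reach a mean of 100, so their changes there rest on low counts. Since the median differs between the transporter genes, RMS differences are not on 1 scale across them.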

How the data were processed

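The authors removed adapters with Trim Galore, aligned paired-end reads of directional mRNA libraries with STAR to GRCh38 (their methods also write hg19) and quantified genes with RSEM 1.3.3 and Ensembl release 84. The deposited values are RSEM expected counts per gene and library, not normalized; 8.84% were not whole and all were rounded. RSEM's strand setting was not stated. Tests were two-sided Wald tests from DESeq2 1.42.0 (R 4.3.3), adjusted over all genes of a contrast. The 12 libraries of batch B of a line shared a fit, the 6 of batch A another, 24 and 12 the interactions, and 6 the vehicle comparison. Alternatives were edgeR 4.0.16, TMM size factors, a filter of 10 counts in 3 libraries, other gene and sample sets, a replicate block and leaving out libraries; omitting HT29 high-dose replicate 2 from HT29 medium, low and the medium interaction was chosen after seeing the data. Scripts were tested on simulated data. Members and lists were chosen with earlier results of these data known. Outside the 10 members, at most 3 genes per list and comparison were named, those with the largest change past the threshold and a mean normalized count of 100 or more. Gene positions are GENCODE v44 on GRCh38, promoter windows RefSeq. The CPM values were computed here from the deposited expected counts. Same-numbered libraries were not treated as paired.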

Additional observations from a re-analysis of the deposited data

Results flagged for a closer look

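The effect of treatment differed between the lines by a test of the interaction for 18 values of the transporter genes, given as log2 difference SW1783 minus HT29. At the high dose of ACD these were 0.73 for *SLC7A5*, 0.61 for *SLC7A11*, 0.57 for *SLC3A2*, 0.35 for *SLC1A5*, 1.14 for *SLC38A1*, -0.51 for *SLC38A2* and -1.52 for *SLC6A9*. At the medium dose they were 1.24 for *SLC7A5*, 0.35 for *SLC7A11*, 0.62 for *SLC3A2*, 0.96 for *SLC1A4*, 0.43 for *SLC1A5*, 0.72 for *SLC38A1* and -0.27 for *SLC38A2*. Under wortmannin they were 0.23 for *SLC7A5*, 0.32 for *SLC7A11*, 0.29 for *SLC1A5* and 0.32 for *SLC38A2*. At the high dose *SLC7A5* and *SLC7A11* rest partly on HT29 replicate 2, without which their differences were 0.50 ± 0.072 and 0.49 ± 0.069. Groups of 3 libraries were too small for a test of single libraries.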

How the results depend on the processing

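The number of transporter genes past the study's threshold stayed within 1.5 times its value in most settings. With the adjusted p alone, it was 4 for the low dose in SW1783, 10 for high against medium in SW1783, 7 and 2 for wortmannin in SW1783 and HT29, and 7, 7 and 4 for the interactions with the high dose, the medium dose and wortmannin. Leaving out 1 library at a time gave 7 to 8 for the high dose, 6 to 7 for the medium dose, 0 for the low dose and 3 for high against medium in SW1783, and 6 to 7, 0 to 1, 0 and 3 to 5 in HT29. It gave 0 and 0 for wortmannin in SW1783 and HT29, 3 to 5, 3 to 4 and 0 for the interactions, and 8 between the vehicles. The medium dose in HT29 came to 0 without vehicle B replicate 1 or without medium replicate 2, since *SLC7A11* was then just under 1.5-fold. High against medium in HT29 came to 3 without high replicate 1 or 3 or medium replicate 3, where *SLC7A5* no longer passed and *SLC7A11* was under 1.5-fold. *SLC7A5* lost this call without each of 5 of the 6 libraries, with edgeR (adjusted p = 0.107) and with only the 2 groups (adjusted p = 0.26). With a replicate block all counts past the 1.5-fold threshold were as without it, for example 8 for the high dose in SW1783 and 6 in HT29, while the genes that rose in HT29 at the high dose by the adjusted p alone went from 9 to 8. Deviations from the group mean were correlated between same-numbered libraries of a treatment and the vehicle of its batch. The correlation was over 0.1 in 4 of 24 pairs and ran from -0.459 to 0.326. Within groups of 3 such deviations are tied to each other, so these values do not settle whether libraries were paired. Of 1850 single-gene values under the alternatives, 1815 kept their side of the threshold, 26 lost it, 9 gained it and 0 called values changed sign. Low counts limit *SLC6A9* in HT29 and *SLC43A1* in SW1783. The vehicles of batches A and B with the same number were closer to each other than to others of their line, with a chi-square per degree of freedom of 1.55 to 1.68 in SW1783 and 1.47 to 1.56 in HT29. Whether they came from the same cultures or RNA is not given in the sources used here, and no test used both.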

Other observations

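Amino acids are sensed on the lysosome by a relay of Rag GTPases and their regulators that feeds the kinase complex mTORC1, and genes of this relay were read at the high dose of ACD. Of 32 sensing genes in SW1783, 16 rose and 6 fell, where 23.8% and 22.6% of all genes did, and 6 rose and 3 fell past 1.5-fold, where 8.65% and 9.57% did, so the falls were near these shares. *SESN2*, a leucine sensor that ATF4 is known to raise, rose by 2.74 ± 0.068, *KICS2* by 1.16 ± 0.11 and *RRAGC* by 1.06 ± 0.048 on the log2 scale. In HT29 1 rose and 2 fell past 1.5-fold, where 1.27% and 1.61% of all genes did, with *SESN2* at 1.12 ± 0.14 (adjusted p = 1.3e-12) and *SESN1* at -0.73 ± 0.12 (adjusted p = 1e-07). The interaction for *SESN2* was 1.57 ± 0.15 in favour of SW1783 (adjusted p = 1.13e-24).

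Of 9 lysosomal amino acid transporters, 8 were tested at the high dose in SW1783 and 2 rose past 1.5-fold, where 8.65% of all genes did, the cystine exporter gene *CTNS* by 0.80 ± 0.097 (adjusted p = 9.41e-16) and *SLC15A4* by 0.68 ± 0.073 (adjusted p = 2.25e-19). In HT29 1 of the 8 tested rose, by less than 1.5-fold, where 3.94% of all genes rose.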
